A study of Homo sapiens with 66 samples.

Results

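MONO-MAC-6 is a human acute myeloid leukaemia (AML) cell line of monocytic type that carries a KMT2A-MLLT3 fusion gene. It is 1 of 11 AML cell lines in a study of etoposide, a drug that poisons topoisomerase II. The 6 MONO-MAC-6 libraries described here were taken out of 66 by their labels. The untreated group (n = 3) received medium only, and the etoposide group (n = 3) received etoposide for 24 hours at the IC50 of MONO-MAC-6, the concentration that lowers the viability signal to the midpoint. Both groups were seeded alike and grown overnight before treatment, and RNA from 3 pooled wells was sequenced as stranded mRNA libraries. All libraries come from 1 cell line, and the labels do not say whether replicates were separate cultures, so p-values measure the spread between these libraries. A culture at its IC50 holds living and dying cells, and a change in every cell cannot be told apart from a change in the mix of cells.

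Topoisomerase II cuts both DNA strands to let another duplex pass, and etoposide holds the enzyme on the cut ends. The breaks are known to start checkpoint signalling, to stabilise p53 and to switch on NF-kB, a transcription factor of inflammatory and survival genes. In monocytic cells NF-kB and the interferon regulatory factors drive cytokines, chemokines and antiviral genes. MYC drives ribosome synthesis, and the SREBP factors drive sterol synthesis.

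Between 20495672 and 22000911 reads per library fell on genes. Genes with at least 1 read numbered 21023 to 21295 in untreated and 22122 to 22298 in etoposide libraries. Mitochondrially encoded genes took 3.49% to 3.57% of the reads before and 4.10% to 4.24% after etoposide. Ribosomal protein genes took 4.64% to 4.99% and 4.002% to 4.14%. These shares moved with treatment, and their part in the results below was not tested. Untreated replicate 1 differed most from its group, at 11.8 and 7.86 chi-square units per degree of freedom from the other replicates, which differed from each other by 2.30.

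Monocytic markers fitted the label. Of 12 markers, 10 lay at or above 1 CPM (counts per 1000000 reads after TMM scaling) in both groups, with LYZ, the lysozyme gene, at 4262 ± 188 CPM (SD, n = 3) in untreated cells. CD68 had 4 reads in the untreated and 12 in the etoposide group, and FCN1 had 5 and 19. HBB, HBG1, MS4A1, CD3G and PF4, which mark red cells, B cells, T cells and platelets, had 0 reads in all 6 libraries, which allows up to 0.0479 CPM over the untreated and 0.0467 CPM over the etoposide group, for counting error only. The 4 granulocytic genes MPO, ELANE, PRTN3 and AZU1 were expressed, with summed levels of 265 to 408 CPM in untreated and 198 to 244 CPM in etoposide libraries.

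Etoposide changed 1867 of 14353 tested genes by more than 2-fold at an FDR below 0.05, in the quasi-likelihood test of edgeR, adjusted by Benjamini-Hochberg. Of these, 1225 rose (8.53% of the genes tested) and 642 fell (4.47%), so that 65.6% of the calls were inductions. All genes tested had a median log2 fold change of 0.01. When libraries were scaled by their total reads alone, that median was 0.13, and the calls were 1466 higher and 496 lower. Changes above 4-fold were more often upward, in 319 genes against 72. Protein-coding genes made up 1525 of the calls and long non-coding RNAs 238. By the FDR alone, without a minimum fold change, 4566 genes (31.8%) rose and 4374 (30.5%) fell.

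**Figure D1:**
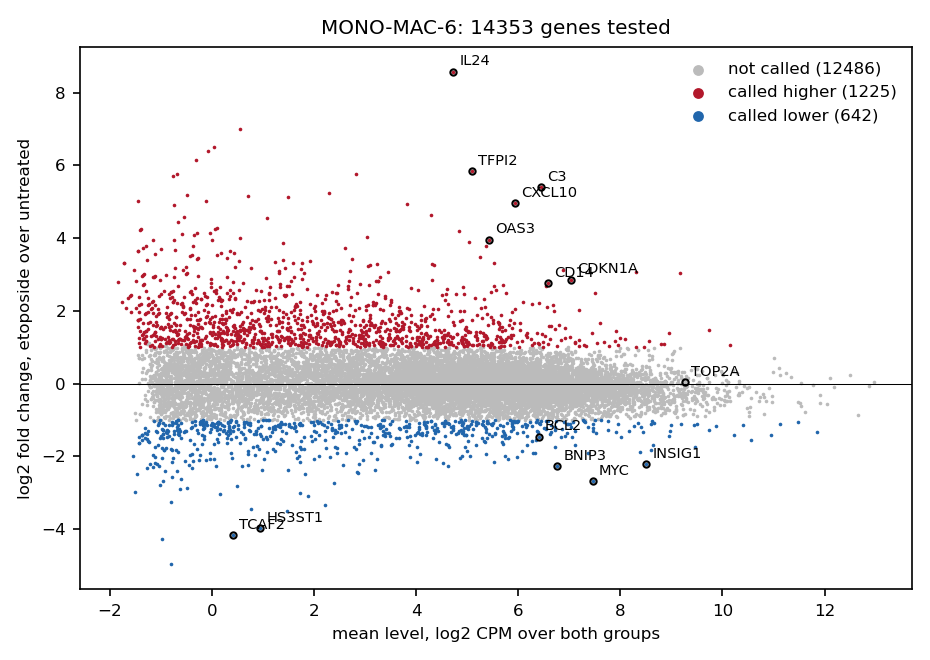
Log2 fold change after etoposide (y axis) against mean level in log2 CPM (x axis) for the 14353 genes tested in MONO-MAC-6, with 1225 called higher in red, 642 called lower in blue and the others in grey. Changes above 4-fold lie mostly above the zero line, and MYC and INSIG1 stand out among the abundant genes that fell.

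The 10 largest inductions included 6 genes of secreted proteins. IL24, on chr1:206897443-206904139 of GRCh38, encodes a cytokine of the IL-10 family. Its levels were 0.204, 0.0497 and 0.147 CPM in the untreated libraries and 51.4, 49.3 and 58.1 CPM after etoposide. The groups were far apart, with a 381-fold rise (log2 8.57 ± 0.19 SE, edgeR adjusted p = 3.8e-11). TFPI2, a protease inhibitor of the extracellular matrix, stood at 1.02, 1.29 and 1.18 CPM before and at 64.9, 59.2 and 76.5 CPM after etoposide (57.1-fold, edgeR adjusted p = 1.0e-10). TNFRSF9, the costimulatory receptor 4-1BB, went from 0.306, 0.249 and 0.196 CPM to 15.03, 13.8 and 12.9 CPM (54.4-fold). Groups that do not overlap were part of the rule that chose these genes. C3, the central complement component, was measured at 4.59, 3.73 and 3.73 CPM in untreated and 166, 171 and 175 CPM in etoposide libraries, a 42.5-fold rise.

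Of the same 10 largest inductions, 6 had 1 read over the 3 untreated libraries, so their folds are loosely bounded. The secreted proteins IL10, VGF and CCL4 are among them. IL10, the anti-inflammatory cytokine, had 194 reads after etoposide, a ratio of 189 after scaling to the reads of each group, with a 95% exact binomial interval of 33.5 to 7507. VGF, a secreted neuropeptide precursor, had 137 reads and DAZL, a germ cell RNA-binding protein, had 126. CXCR3, a chemokine receptor, had 107, RRAD, a small GTPase, had 82 and CCL4, a chemokine, had 78. The lowest of these ratios, that of CCL4, was 76.0 (interval 13.3 to 3041). These intervals cover counting error only, and CCL4 has near-identical copies in the genome with which reads can be shared.

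The 10 largest reductions were in genes of modest level and of varied function. DDN, the gene of the cytoskeletal protein dendrin, fell from 8.32, 9.003 and 8.19 CPM to 0.580, 0.744 and 1.18 CPM, 10.1-fold lower. HS3ST1, a heparan sulfate sulfotransferase, fell from 3.57, 3.88 and 3.43 CPM to 0.178, 0.325 and 0.175 CPM, 15.8-fold lower. APLN, the gene of the peptide hormone apelin, was 8.42-fold lower. TCAF2 was 18.02-fold lower, from a mean of 2.52 CPM. It lies in a duplicated region, where reads can be shared between copies. The other 6 were KCNJ11, a potassium channel subunit, the kinase gene PNCK, the nuclear receptor RORA, KLHL31, the transcription factor EBF3 and PPP1R3G, a glycogen phosphatase subunit, with log2 fold changes between -3.43 and -2.72. None of the untreated and etoposide groups overlapped for these 10 genes, which was part of the rule that chose them.

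Of the drug's targets, TOP2B was lower after etoposide, while for TOP2A the groups overlapped. TOP2A, the topoisomerase of dividing cells, had 669, 551 and 594 CPM in untreated and 677, 540 and 661 CPM in etoposide libraries. The log2 difference of 0.05 ± 0.08 (SE) had an edgeR adjusted p of 0.63. TOP2B, the second isoform of the enzyme, was lower in every etoposide library, at 444, 390 and 431 CPM against 850, 697 and 759 CPM. It fell by 0.87 on the log2 scale (edgeR adjusted p = 6.5e-07), which is below the 2-fold limit. TOP1MT, the mitochondrial topoisomerase, was the single called gene of the 8 on this list, beside 4.47% of all genes called lower. It stood at 35.5 ± 1.70 against 84.1 ± 8.27 CPM (SD, n = 3). TDP2, the enzyme that frees topoisomerase II from DNA ends, had a log2 difference of 0.00 ± 0.06 (SE), and TDP1 one of -0.24. TOP1, TOP3A and TOP3B had log2 differences of -0.19, 0.12 and 0.02.

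Genes of the p53 response rose in part. Of 25 tested members of a list of 26, 9 were called higher and 0 lower, with a median log2 fold change of 0.77, beside 8.53% of all genes and a median of 0.01. The p53 list was taken over from an earlier analysis of these data, and all 19 lists were chosen with earlier results known. Their counts are therefore descriptions and not tests. BTG2, an antiproliferative gene, had 25.4, 25.7 and 21.6 CPM in untreated and 210.0, 209.7 and 210.6 CPM in etoposide libraries (8.67-fold, edgeR adjusted p = 2.9e-11). CDKN1A, the cyclin-dependent kinase inhibitor p21, went from 29.1, 30.9 and 35.0 CPM to 229.8, 229.2 and 231.0 CPM (7.26-fold). The etoposide libraries lay within 2 CPM of each other for both genes. GADD45A, a stress sensor of growth arrest, rose 4.15-fold, TP53INP1 3.40-fold and the death receptor gene FAS 2.75-fold. MDM2, the ubiquitin ligase of p53, was at 77.9 ± 3.29 against 50.9 ± 3.10 CPM, a 1.53-fold difference below the limit.

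Few cell cycle genes passed the limit. None of the 30 genes of G2 and mitosis was called in either direction (median log2 fold change 0.07). By the FDR alone 13 were higher and 7 lower, beside 31.8% and 30.5% of all genes. The replication list had 4 of 35 members called higher and 0 lower, beside 8.53% of all genes called higher, with a median of 0.52. By the FDR alone 30 were higher and 1 lower, beside 31.8% and 30.5% of all genes. RRM2, the small subunit of ribonucleotide reductase, stood at 280, 273 and 267 CPM in untreated and 756, 697 and 715 CPM in etoposide libraries (2.64-fold). CCNE2, cyclin E2, rose 3.08-fold, E2F2, a transcription factor of S phase entry, 3.56-fold and TK1, thymidine kinase, 2.23-fold. Of 33 double-strand break repair genes tested, 2 were called higher and 0 lower, beside 8.53% and 4.47% of all genes. They were EXO1, a resection nuclease, and BRCA2, a recombination mediator, which rose 2.64-fold and 2.08-fold. BRCA2 fell under the fold limit without untreated replicate 2, at a log2 fold change of 0.95. Of 24 histone genes tested out of 55 matched, 2 were called higher and 1 lower, beside the same 8.53% and 4.47%. H3C7 and H1-4 rose from 0.149 and 0.167 CPM, and H2AC6 fell. H3C7 and H1-4 passed the filter on low counts only through the etoposide group, so they could only come out higher. Histone genes are near-identical and mostly lack poly(A) tails, so their counts in these libraries are uncertain, and H2AC6 fell by 0.97 on the log2 scale when libraries were scaled by total reads, under the limit.

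Cytokines, chemokines and NF-kB targets had the highest median of the 19 lists. Of 33 members tested out of 37 matched, 28 rose and 0 fell, beside 8.53% and 4.47% of all genes. The median log2 fold change was 1.78, and all 33 were higher by the FDR alone, beside 31.8% of all genes. CXCL10, a chemokine for T cells, went from 4.08, 3.43 and 3.97 CPM to 127, 115 and 115 CPM (30.95-fold, edgeR adjusted p = 8.1e-12). BIRC3, an inhibitor of apoptosis and NF-kB target, rose from 5.77, 4.97 and 6.18 CPM to 83.1, 71.2 and 77.6 CPM, and CCL3, a macrophage chemokine with near-identical copies, rose 9.93-fold. The feedback inhibitor NFKBIA, named after its values were seen, went from 43.5, 38.3 and 43.8 CPM to 166, 169 and 166 CPM (3.99-fold). No etoposide library of these genes reached down to the untreated range. TNF was 1 of the 5 members not called, with 7.19, 4.87 and 4.86 CPM against 8.12, 6.55 and 8.26 CPM, so its groups overlapped. IL6 was called at a low level, from 0.434 ± 0.164 to 1.503 ± 0.353 CPM (SD, n = 3). Members such as IL6, and IL10 and CCL4 with 1 untreated read each, passed the filter on low counts only through the etoposide group. Such members could only come out higher, which raises the list's count and median.

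Interferon response genes rose too. Of 34 tested, 22 were called higher and 0 lower, beside 8.53% and 4.47% of all genes. The median log2 fold change was 1.18. OAS3, a sensor of double-stranded RNA, stood at 4.95, 4.92 and 5.69 CPM in untreated and 78.6, 83.2 and 80.6 CPM in etoposide libraries (15.6-fold, edgeR adjusted p = 2.2e-11). IFI44L rose 10.0-fold, SLFN5 5.96-fold and IFI44 5.62-fold, all interferon-induced genes. The interferon genes IFNB1 and IFNL1 did not pass the filter on low counts.

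**Figure D2:**
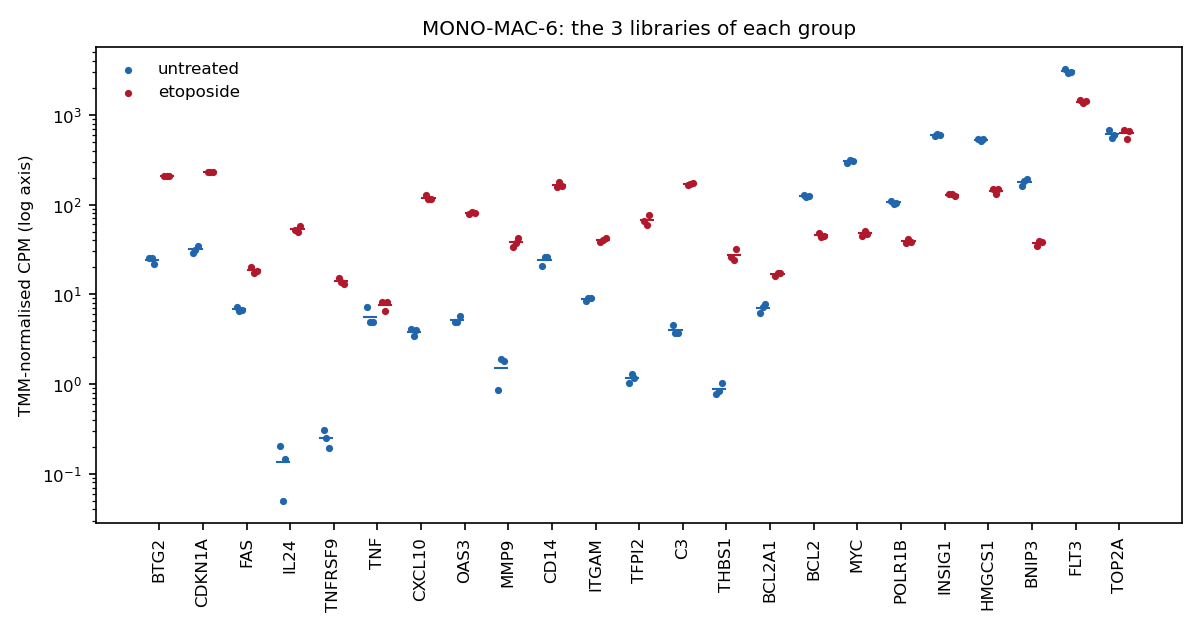
CPM on a log axis for 23 genes in the 3 untreated (blue) and 3 etoposide (red) MONO-MAC-6 libraries, with a bar at each group mean. The groups are apart for 21 of the genes, and they overlap for TNF and TOP2A.

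The promoters of both lists were searched for the letters of known factor sites. A promoter is here the 250 bases before and 50 bases after the transcription start, from RefSeq on GRCh38.p14, searched on both strands. The core of the interferon-stimulated response element, GAAANNGAAA, was in the promoters of 19 of 28 interferon genes with an entry and in 13 of the 16 that were called. It was in 3.57% of all 35116 promoters, and 4.11% of the 10534 tested genes with an entry held it. The kappa B consensus was in 16 of 30 cytokine and NF-kB genes with an entry and in 12 of the 22 called, against 11.3% of all promoters and 17.4% of the tested genes. No test was made, and a match of letters is not a bound site. CXCL10 belongs to both lists and held both motifs. Its promoter is shown with those of OAS3 and NFKBIA, with the matched letters in capitals. In CXCL10 the first run of capitals is the response element core and the other 2 are kappa B matches. In OAS3 the first and last runs are response element cores and the middle one is a kappa B match on each strand, offset by 1 base. In NFKBIA the run is a kappa B match. They lie on chr4:76023448-76023747 (minus strand), chr12:112938224-112938523 (plus strand) and chr14:35404700-35404999 (minus strand).
CXCL10: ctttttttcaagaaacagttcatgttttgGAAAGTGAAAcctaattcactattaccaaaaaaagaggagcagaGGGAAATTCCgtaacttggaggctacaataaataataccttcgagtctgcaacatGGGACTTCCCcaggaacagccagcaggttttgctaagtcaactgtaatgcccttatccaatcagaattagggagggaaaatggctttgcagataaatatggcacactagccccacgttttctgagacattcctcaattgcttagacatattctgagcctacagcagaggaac
OAS3: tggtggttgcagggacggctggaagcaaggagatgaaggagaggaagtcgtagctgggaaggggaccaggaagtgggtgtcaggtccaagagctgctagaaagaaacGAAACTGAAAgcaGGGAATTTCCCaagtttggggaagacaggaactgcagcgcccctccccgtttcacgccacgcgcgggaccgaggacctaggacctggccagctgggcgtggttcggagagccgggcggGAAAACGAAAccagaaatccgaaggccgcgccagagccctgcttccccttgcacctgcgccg
NFKBIA: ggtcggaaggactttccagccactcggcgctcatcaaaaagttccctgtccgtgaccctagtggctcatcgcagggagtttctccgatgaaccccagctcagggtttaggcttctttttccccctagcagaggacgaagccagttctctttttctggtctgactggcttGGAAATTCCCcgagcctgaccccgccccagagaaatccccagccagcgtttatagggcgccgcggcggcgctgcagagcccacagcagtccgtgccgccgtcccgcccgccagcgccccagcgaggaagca

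Immediate early genes, the first transcripts of growth and stress signals, followed the same direction. Of 23 tested, 12 were called higher and 0 lower, beside 8.53% and 4.47% of all genes, with a median of 1.04. JUN, a subunit of the AP-1 factor, went from 33.6, 37.3 and 40.3 CPM to 162, 168 and 173 CPM (4.51-fold). IER3 rose 7.66-fold, DUSP1 and DUSP4, phosphatases that switch off MAP kinases, 5.42-fold and 4.56-fold, and EGR2 3.50-fold. The AP-1 letters TGANTCA were in the promoter of 1 of 19 list genes with an entry and in 7.71% of all promoters.

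Monocyte and macrophage genes moved in both directions. Of 37 tested out of 42, 16 rose and 3 fell, beside 8.53% and 4.47% of all genes, with a median of 0.53. MMP9, a gelatinase, stood at 0.867, 1.89 and 1.81 CPM before and 33.8, 37.4 and 42.5 CPM after etoposide (24.7-fold). CD14, the lipopolysaccharide co-receptor, went from 20.7, 26.1 and 26.2 CPM to 156, 180.2 and 162 CPM (6.82-fold, edgeR adjusted p = 6.9e-10). The costimulatory gene CD80 rose 5.47-fold and the integrin gene ITGAM 4.56-fold. CD80, at 0.232 CPM in untreated cells, passed the filter on low counts only through the etoposide group, so it could only come out higher. Those that fell were CCR2, the monocyte chemokine receptor, from 75.5 ± 5.34 to 16.8 ± 0.583 CPM (SD, n = 3), IRF8, a factor of monocyte fate, from 252 ± 4.48 to 103 ± 4.26 CPM, and FCGR1A, an Fc receptor with near-identical copies, from 7.88 ± 0.456 to 3.58 ± 0.449 CPM. S100A8 and S100A9, the calprotectin subunits, had log2 differences of -0.03 and 0.03, and that of S100A8 was 0.09 with scaling by total reads. The other monocytic markers ranged from LYZ, which fell by 0.32 on the log2 scale, and CEBPA, which fell by 0.54, to SPI1 at 0.15 and CSF1R, called higher at 1.21. The summed level of the 12 markers was 6727 to 6902 CPM in untreated and 5754 to 6073 CPM in etoposide libraries.

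Markers of other lineages went both ways too. Of 13 tested out of 31, 3 rose and 3 fell, beside 8.53% and 4.47% of all genes. MPO, a granule enzyme of myeloid precursors, fell from 48.7, 56.5 and 53.5 CPM to 13.7, 13.4 and 12.7 CPM (3.99-fold lower). PRTN3, another granule protease, was 3.25-fold lower. COL1A1, a collagen chain, rose 6.51-fold from 1.48 ± 0.353 CPM, CD8A 5.11-fold and CD79B 2.79-fold, while COL1A2, CD3D, CD3E and MS4A1 had at most 2 reads in either group.

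In the BCL2 family, 3 of 14 tested genes rose and 1 fell, beside 8.53% and 4.47% of all genes, with a median of 0.35. BCL2, the antiapoptotic founder of the family, went from 128, 121 and 123.1 CPM to 47.7, 43.8 and 44.3 CPM (2.74-fold lower, edgeR adjusted p = 2.0e-09). BCL2A1, its antiapoptotic relative and an NF-kB target, went from 6.17, 7.21 and 7.75 CPM to 16.2, 17.2 and 17.3 CPM (2.39-fold higher). The proapoptotic members BMF and PMAIP1 rose 2.49-fold and 2.08-fold. PMAIP1 was at a log2 fold change of 0.98 without untreated replicate 2, under the limit. Of 25 death receptor, ligand and caspase genes tested, 4 rose and 0 fell, beside the same 8.53% and 4.47%. Those that rose were BIRC3, FAS, the kinase gene RIPK1 (2.07-fold) and the decoy receptor gene TNFRSF10C (2.04-fold). TNFRSF10C lay between 0.94 and 0.98 without untreated replicate 1, untreated replicate 2 or etoposide replicate 2.

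Among 16 genes that the study names as drivers of the drug's effect, 15 were tested. Of these, 3 were called higher and 2 lower, beside 8.53% and 4.47% of all genes. The study chose these genes on samples that include these libraries, so their directions are not independent evidence. BCL2A1 and MYC are described with their lists. PARP9, an ADP-ribosyltransferase of DNA damage and interferon signalling, went from 29.2, 28.3 and 27.96 CPM to 62.1, 61.2 and 59.4 CPM (2.14-fold). NOTCH1, a receptor of cell fate signalling, stood at 56.3, 78.6 and 78.4 CPM in untreated and 129.6, 153 and 152 CPM in etoposide libraries, a log2 fold change of 1.02. It fell under the limit without untreated replicate 1 (0.88), etoposide replicate 2 (0.98) or etoposide replicate 3 (0.99). IGF1R, a growth factor receptor, was 2.19-fold lower at 0.718 ± 0.152 CPM. The genes that were not called include PLK1, a mitotic kinase, and SMARCA4, a chromatin remodeller, both with a log2 difference of -0.53, BIRC5 at 0.11, MTOR at 0.06, HDAC1 at 0.24, ROCK1 at -0.21, MALT1 at 0.47, SIRT1 at 0.37 and SLFN11 at -0.22. PRKCH did not pass the filter on low counts.

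MYC fell, as did 11 of the other 28 tested genes of the ribosome synthesis list. MYC itself had 292, 311 and 306 CPM in untreated and 44.9, 50.8 and 47.4 CPM in etoposide libraries, 6.37-fold lower (edgeR adjusted p = 2.9e-11). Of the 29 genes tested, MYC included, 12 fell and 0 rose beside 4.47% of all genes called lower, with a median of -0.92. By the FDR alone 23 were lower, beside 30.5% of all genes. POLR1B, a subunit of the polymerase that transcribes ribosomal RNA, went from 111, 102 and 104 CPM to 36.9, 40.9 and 38.6 CPM (2.72-fold lower). RRS1 and NOLC1, ribosome assembly factors, were 2.70-fold and 2.26-fold lower, and MXI1, a MYC antagonist, was 2.62-fold lower. The E-box, CACGTG, which MYC is known to bind, was in the promoters of 7 of 23 list genes with an entry, 4 of the 8 called, 7.26% of all promoters and 12.7% of the tested genes. RRP9, a ribosomal RNA processing factor, held it across its transcription start. Its promoter lies on chr3:51941855-51942154 (minus strand), shown with the E-box in capitals, and its level was 49.9, 55.6 and 55.8 CPM in untreated and 22.9, 27.3 and 24.6 CPM in etoposide libraries. RRP9 fell by 0.99 on the log2 scale with scaling by total reads, under the limit.
RRP9: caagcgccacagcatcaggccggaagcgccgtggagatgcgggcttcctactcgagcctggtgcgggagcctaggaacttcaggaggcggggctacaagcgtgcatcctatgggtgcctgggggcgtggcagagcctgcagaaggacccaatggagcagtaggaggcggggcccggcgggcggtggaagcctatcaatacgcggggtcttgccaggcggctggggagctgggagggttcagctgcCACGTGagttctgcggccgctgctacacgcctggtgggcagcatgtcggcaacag

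Of 19 sterol genes tested, 9 fell, 1 rose and 9 were not called, beside 4.47% of all genes called lower, with a median of -0.98. By the FDR alone 18 were lower, beside 30.5% of all genes. INSIG1, a sterol sensor and SREBP target, went from 583, 612 and 596 CPM to 132, 132 and 123.2 CPM (4.63-fold lower, edgeR adjusted p = 2.9e-11). HMGCS1, an early enzyme of the pathway, went from 536, 516 and 533 CPM to 149, 132 and 149 CPM (3.69-fold lower). DHCR7 and SQLE, which act later in the pathway, were 2.74-fold and 2.47-fold lower. ABCA1, which exports cholesterol, was the member that rose, 3.39-fold. The sterol response element core TCACNCCAC was in the promoter of 1 of 14 list genes with an entry and in 1.13% of all promoters.

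Among KMT2A fusion targets, 2 of 19 fell and 0 rose, beside 4.47% of all genes called lower, with a median of -0.19. FLT3, the receptor kinase, went from 3275, 2901 and 3002 CPM to 1458, 1342 and 1418 CPM (2.18-fold lower), and MYB, a factor of blood progenitors, from 761, 698 and 709 CPM to 266, 257 and 274 CPM (2.72-fold lower). Of 20 integrated stress and unfolded protein response genes, 6 rose and 0 fell, beside 8.53% and 4.47% of all genes. They included CHAC1 at 3.29-fold, ATF3 at 3.08-fold, PPP1R15A at 2.37-fold, DDIT3 at 2.20-fold and SESN2 at 2.16-fold. By the FDR alone 10 were higher and 9 lower, beside 31.8% and 30.5% of all genes. None of the 13 mitochondrially encoded genes was called (median 0.24).

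The MONO-MAC-6 response was compared with that of THP-1, NOMO-1 and MOLM-13, other monocytic AML lines with KMT2A-MLLT3 fusions, each untreated or treated for 24 hours at its own IC50 (n = 3 per group). The doses therefore differ between the lines. The MONO-MAC-6 log2 fold change minus the mean of the 3 other lines was tested in 1 fit of 24 libraries. Of 17533 genes, 412 had a higher response in MONO-MAC-6 (2.35%) and 381 a lower one (2.17%), at an FDR below 0.05 and a difference above 1 on the log2 scale. The error in this test is that between libraries and holds no variation between cell lines. Many of these genes were barely expressed in 1 or more lines, and 385 of the 793 reached 1 CPM in at least 1 condition of each line.

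Cytokine and interferon genes were among those with a higher response than the mean of the other lines, though not always than each line. Of 34 cytokine and NF-kB genes, 8 differed upwards and 0 downwards, beside 2.35% and 2.17% of all genes, with a median difference of 0.81. CXCL10 differed by 3.19 (edgeR adjusted p = 0.012), CCL3 by 1.73, BIRC3 by 1.96 and NFKBIA by 1.54 (edgeR adjusted p = 2.5e-10). BIRC3 had a log2 fold change of 4.19 in NOMO-1, above that of 3.78 in MONO-MAC-6, and of 0.16 in THP-1 and 1.08 in MOLM-13. CXCL10 stood at 4.68 in NOMO-1 beside 4.95 in MONO-MAC-6, and in MOLM-13 it had 4 reads untreated and 2 after etoposide. In the lines' own fits, the median log2 fold change of this list was 1.08 in THP-1, 1.58 in NOMO-1 and 0.54 in MOLM-13. These medians cover the 26, 32 and 24 members tested in those lines, so the genes differ between lines. Of 35 interferon genes, 6 differed upwards and 1 downwards, beside 2.35% and 2.17% of all genes. The upward ones were led by CXCL10 and by OAS3 with a difference of 2.53 (edgeR adjusted p = 1.0e-07). MX2, an antiviral GTPase, had a difference of -1.32. THP-1 had a list median of 1.25, above that of MONO-MAC-6 at 1.18, a difference that was not tested.

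Of 35 replication genes, 4 differed upwards from the mean of the other lines and 0 downwards, beside 2.35% and 2.17% of all genes. Those with a higher response in MONO-MAC-6 were RRM2 (difference 1.34), CCNE2 (1.25), E2F2 (1.06) and TK1 (1.02). CCNE2 had a log2 fold change of 1.72 in NOMO-1 beside 1.62 in MONO-MAC-6, and E2F2 one of 1.67 beside 1.83. The list's median was 0.14 in THP-1, 0.48 in NOMO-1 and -0.95 in MOLM-13. In MOLM-13, 15 of 35 genes fell, beside 462 of the 13710 tested in that line. The integrated stress list went the other way, with 3 of 20 lower and 0 higher, beside 2.17% and 2.35% of all genes. The lower ones were DDIT4, an inhibitor of mTORC1 signalling (-1.67), ATF3 (-1.54) and the chaperone gene DNAJB9 (-1.34). MOLM-13 lay below MONO-MAC-6 for ATF3, at 0.49 against 1.62, and for DDIT4, at -0.50 against -0.43. Its median was 1.43 in THP-1, 0.99 in NOMO-1 and -0.32 in MOLM-13, against 0.17 in MONO-MAC-6. MYC fell further in MONO-MAC-6, by 1.58 on the log2 scale (edgeR adjusted p = 1.2e-09). Of the monocytic list, CD14 and MMP9 had a higher response by 1.45 and 3.12, while CCR2 (-1.77), CYBB, a subunit of the phagocyte oxidase (-2.11), FCGR1A (-1.17), S100A8 (-1.28) and S100A9 (-1.42) had a lower one. The log2 fold change of CD14 was 2.58 in THP-1 beside 2.77 in MONO-MAC-6, and in MOLM-13 the gene had 14 reads in each group and did not pass the filter. S100A9 stood at -0.11 in NOMO-1, below MONO-MAC-6 at 0.03. No gene of the drug target, BCL2 family, KMT2A target or mitochondrially encoded lists differed by more than the limit.

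**Figure D3:**
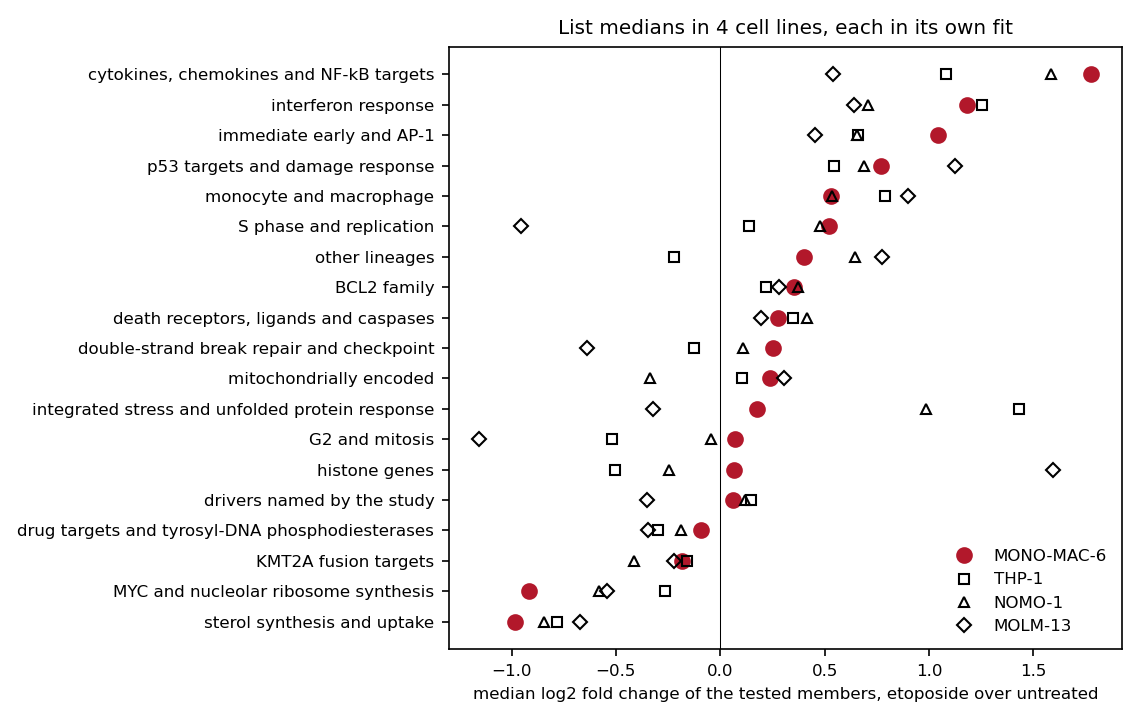
Median log2 fold change after etoposide (x axis) of the tested members of each list (rows), in MONO-MAC-6 (red circles), THP-1 (squares), NOMO-1 (triangles) and MOLM-13 (diamonds), each line in its own fit of 6 libraries. The 4 lines lie on 1 side of zero for 11 of the 19 lists and differ most for histone, S phase and stress response genes.

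When p-values were adjusted again over the 11284 genes that reached 1 CPM in each of the 4 lines, a filter added after the data were seen, 204 had a higher and 183 a lower response in MONO-MAC-6. Of these, 203 and 182 were among the 385. C3 rose 42.5-fold in MONO-MAC-6, and its log2 fold change of 5.41 stood beside 1.06 in THP-1, 3.54 in NOMO-1 and 2.14 in MOLM-13 (difference 3.15 ± 0.27 SE). GHRL, the gene of the hormone ghrelin, rose by 5.23 against 0.50, 2.08 and 2.24 in the same order. ITPR3, a calcium release channel, rose from 0.594 to 3.80 CPM in MONO-MAC-6, whereas the other lines had 28.3 to 78.7 CPM untreated and log2 fold changes of 0.03, -0.27 and -1.02. TP53INP2, an autophagy regulator, was the clearest case of opposite direction. It went from 126 to 64.4 CPM in MONO-MAC-6 and from 6.77 to 31.01, 7.96 to 18.8 and 4.64 to 16.2 CPM in THP-1, NOMO-1 and MOLM-13 (difference -2.71 ± 0.14 SE, edgeR adjusted p = 2.4e-13). RAB33A, a small GTPase, had a difference of -2.55, with a log2 fold change of -2.14 in MONO-MAC-6 and between -0.23 and 1.31 elsewhere.

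**Figure D4:**
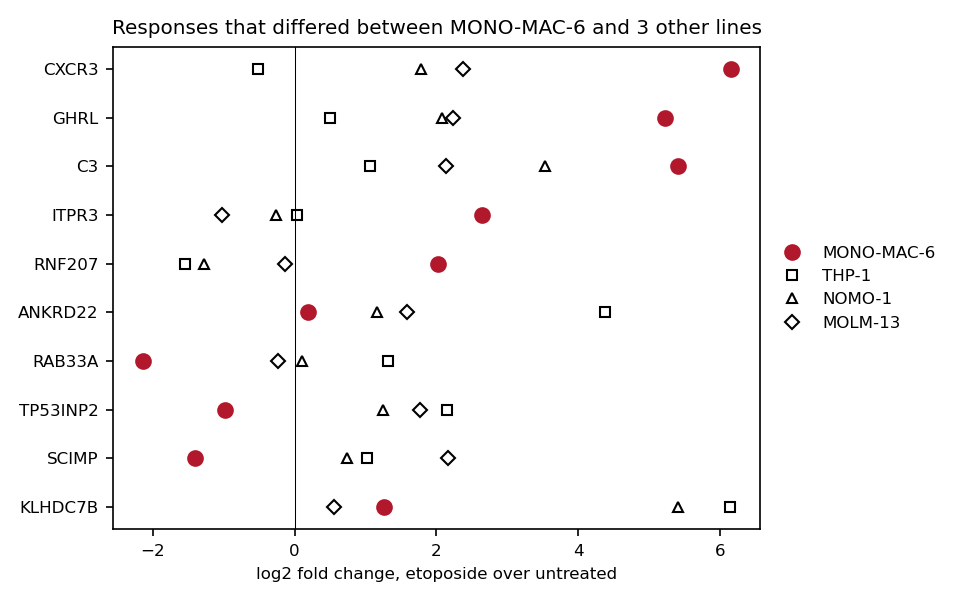
Log2 fold change after etoposide (x axis) of the 5 genes with the highest and the 5 with the lowest response in MONO-MAC-6 relative to the other 3 lines, among genes that reach 1 CPM in each line, with MONO-MAC-6 as red circles. MONO-MAC-6 lies outside the range of the other 3 lines for 9 of the 10 genes and inside it for KLHDC7B. The genes were chosen for their difference from the mean of these lines, so this position follows largely from the choice.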

How the data were processed

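RNA was measured in 6 MONO-MAC-6 libraries, grouped by their titles, and in 18 libraries of 3 comparison lines. Per the submitters' processing notes and the methods, the authors checked reads with FastQC 0.11.5, mapped them with STAR 2.5.3a to GRCh38.p7 and counted reads per gene. The deposited values are raw counts, 1 column per library. Of 707 genes inside an exon of the opposite strand, 214 had reads in MONO-MAC-6, from which counting by strand was inferred. The sources used here do not name the count column, and exon positions are those of gencode 44. The authors called differential expression with edgeR 3.20.1.

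From the counts, 57992 identifiers were analysed here after leaving out 45 pseudoautosomal copies without reads, and 56948 were named by gencode 44. In R 4.3.3 with edgeR 4.0.16, filterByExpr (minimum count 10, total 15), TMM normalization and the quasi-likelihood test were used. A call needed more than a 2-fold change and an FDR under 0.05. Alternatives were DESeq2 1.42.0 and edgeR's exact test, with other scalings, filters, left-out libraries and comparison lines. The test within MONO-MAC-6 and the test of the difference between lines were tried on simulated counts, with changes set in well-covered genes only. The alternatives, the motif search and the intervals were not tried in this way. CPM are TMM-scaled, within MONO-MAC-6 or over the 24 libraries where lines are compared. The precision of a CPM is limited by 20495672 to 22000911 reads per library. Intervals are exact binomial at 95%.

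The main tests did not pair the libraries. Replicate numbers were taken as a block in an alternative, since deviations from group means correlated above 0.1 for each same-numbered pair. These correlations were 0.61, 0.52 and 0.1036 over 10374 genes. Untreated replicate 3 correlated better with etoposide replicate 2, at 0.25. The labels do not say what a number stands for.

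The members and the 19 lists were chosen with earlier results of these data known, and the p53 list was taken over from an earlier analysis of them. Named genes were the 10 largest changes in each direction among called protein-coding genes of at least 1 CPM without overlap of the groups, up to 5 called genes of each list, the drug targets and drivers in full, the monocytic markers, and the 5 largest differences each way at 5 CPM or more. All other genes named, such as MDM2, TNF, IL6, NFKBIA, RRP9, CCR2, CYBB, MX2, DDIT4 and DNAJB9, were picked after their values were seen. The unmatched symbols SOD2, CCL3L1, TWISTNB and 5 histone genes were not analysed. Some genes of the rule are not reported here. Python 3.11.15, pandas 2.3.3, scipy 1.17.1 and matplotlib 3.10.9 made tables and figures.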

Additional observations from a re-analysis of the deposited data

Results flagged for a closer look

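The response to etoposide differed between MONO-MAC-6 and the mean of THP-1, NOMO-1 and MOLM-13 for 412 genes in the upward and 381 in the downward direction, by edgeR's quasi-likelihood test of the difference. Values are the log2 fold change in MONO-MAC-6 minus the mean of the 3 other lines. The highest were CXCR3 at 4.91, SLC22A23 at 4.74, TWIST1 at 4.61, SERPINB2 at 3.82 and GABBR1 at 3.73. The lowest were RGL4 at -4.04, PRELID2 at -3.23, SIGLEC6 at -3.02, KLHDC7B at -2.78 and SCIMP at -2.72. SERPINB2, an inhibitor of plasminogen activators, went from 24.98 to 162 CPM in MONO-MAC-6 and from 137 to 22.4 CPM in THP-1, with 24.6 to 10.2 CPM in NOMO-1 and under 1 CPM in MOLM-13.

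In MONO-MAC-6, SLC22A23 had 0 and 4 reads, GABBR1 2 and 35, RGL4 8 and 2, and SIGLEC6 16 and 3 in the untreated and etoposide groups. None of these 4 passed the filter in MONO-MAC-6. They entered the comparison through their levels in NOMO-1 or MOLM-13, while their differences rest in large part on these few reads. Elsewhere, RGL4 had 1 and 18 reads in THP-1 and SLC22A23 had 15 and 1 in MOLM-13. CXCR3 had 1 untreated read and TWIST1 had 3. SLC22A23 was not called without MOLM-13 (edgeR adjusted p = 0.068), with the replicate block (0.050) or without any single MONO-MAC-6 library except etoposide replicate 1 (0.050 to 0.11).

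Among genes of at least 1 CPM in each of the 4 lines, the other differences were GHRL at 3.61, C3 at 3.15, ITPR3 at 3.06, RNF207 at 3.01, TP53INP2 at -2.71, RAB33A at -2.55 and ANKRD22 at -2.19. RNF207 went from 0.725 to 3.02 CPM in MONO-MAC-6 and from 4.65 to 1.64, 13.6 to 5.56 and 21.4 to 19.999 CPM in THP-1, NOMO-1 and MOLM-13.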

How the results depend on the processing

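With a mean of at least 5 CPM as the filter, 550 genes were called higher and 318 lower in MONO-MAC-6, and 208 and 199 in the comparison with other lines, with 10374 genes tested in MONO-MAC-6 instead of 14353. Without a minimum fold change 4566 rose and 4374 fell. Leaving out NOMO-1 gave 613 genes with a lower response, of which 314 were among the 381, and the cause was not tested. Genes of at least 1 CPM in each line, an alternative added after the data were seen, gave 204 and 183. Left-out MONO-MAC-6 libraries gave 1239 to 1360 and 664 to 720 calls, and 367 to 400 and 331 to 363 in the comparison. The replicate block gave 1231 and 641 calls, of which 1224 and 639 were shared, and 411 and 356 in the comparison. Among the named genes it changed the call of SLC22A23. RLE scaling gave 1214 and 658, library size alone 1466 and 496, DESeq2 1178 and 637, the exact test 1229 and 644, no filter 1580 and 832, and 1 fit of 24 libraries 1470 and 701.

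Of 120 genes named in MONO-MAC-6, 93 kept direction and side of the threshold in every alternative in which they were tested. Sign changes touched 4 uncalled genes near zero. TDP2 was at -0.00563 with RLE, -0.00474 with no filter, -0.00565 with DESeq2 and between -0.0458 and 0.0618 with 1 library left out. S100A8 was at 0.0858 with library size alone. With 1 library left out, TOP2A lay between -0.0224 and 0.147 and TOP3B between -0.00777 and 0.0542. At this depth genes with a few reads per group have wide counting intervals, as for IL10, VGF, DAZL, CXCR3, RRAD and CCL4.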

Other observations

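Hypoxia and glycolysis genes, a list put together after values were seen, were lower after etoposide in MONO-MAC-6. Of 32 tested, 15 were called lower and 0 higher, beside 4.47% and 8.53% of all genes. By the FDR alone 29 were lower, beside 30.5% of all genes, and the median log2 fold change was -0.96. BNIP3, a mitophagy receptor, went from 162, 182 and 193 CPM to 34.3, 39.0 and 38.7 CPM. PDK1, the kinase that restrains pyruvate dehydrogenase, went from 35.6, 37.0 and 40.5 CPM to 8.61, 7.76 and 8.65 CPM, and its log2 fold change differed from the mean of the other 3 lines by -1.61 (edgeR adjusted p = 4.3e-09). CA9, a carbonic anhydrase of hypoxic cells, went from 6.48 ± 2.28 to 1.55 ± 0.524 CPM (SD, n = 3). VEGFA, the vascular growth factor of the same list, was higher instead, at 531, 551 and 533 CPM against 245, 275 and 295 CPM, just below the 2-fold limit. List medians in the other lines were -0.06 in THP-1, -0.55 in NOMO-1 and -0.39 in MOLM-13.

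Matrix, protease and coagulation genes, also grouped after values were seen, were mostly higher. Of 23 tested, 14 were called higher and 1 lower, beside 8.53% and 4.47% of all genes, with a median of 1.89. THBS1, thrombospondin 1, went from 0.765, 0.846 and 1.03 CPM to 25.9, 24.1 and 31.9 CPM (30.8-fold). The collagenase genes MMP1 and MMP8, the stromelysin gene MMP10 and the plasminogen activator gene PLAT rose by 3.22, 2.41, 4.14 and 3.41 on the log2 scale. F13A1, the clotting factor XIII chain of monocytes, was the member that fell, by 1.20. Medians in the other lines were 0.75 in THP-1, 0.61 in NOMO-1 and 1.23 in MOLM-13. Both lists were grouped by their values, so these counts are descriptions and not tests.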
